A study of Homo sapiens with 18 samples.

Results

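The subject is a set of 10 immediate early genes and family relatives, FOS, FOSB, FOSL1, FOSL2, JUN, JUNB, JUND, EGR1, IER2 and DUSP1, among the 62703 genes counted in each library. They were chosen by the level of FOS, which was lower in the gN1E libraries than in the SCR libraries labelled H929, and the other members were taken by name as relatives of FOS or as genes induced with it. The contrast between the gapmeR labels in H929 is therefore a description here, and no conclusion on the members is drawn from its test. RNA was sequenced from AMO1, LP1 and NCI-H929 (H929 in the labels), human multiple myeloma cell lines, meaning lines of malignant plasma cells. Cells took up without a transfection reagent (gymnosis) either a NEAT1 gapmeR, an antisense oligonucleotide that directs RNase H to its target and is labelled gN1E, or a scrambled gapmeR labelled SCR, for 48 h by the treatment protocol, while the design text gives 48 days. A single NEAT1 gapmeR was used, so the effects of its sequence and of lower NEAT1 cannot be told apart. Each of the 6 groups held 3 libraries, with 28061606 to 69937229 counts per library. Nothing in the labels says that the libraries of a group came from separate cultures, so the p-values measure the spread between these libraries, which may be technical.

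NEAT1, the target, went against the gapmeR label in every line. Levels are counts-per-million (CPM) scaled by TMM, the trimmed mean of M-values. In AMO1, NEAT1 was at 75.7, 78.7 and 90.1 CPM in SCR libraries A, C and D and at 474, 540.3 and 509.9 CPM in gN1E libraries A, C and D. In LP1 it was at 135, 172 and 188 CPM in SCR libraries A, B and D and at 656, 666 and 827 CPM in gN1E libraries A, B and D. In H929 it was at 80.7, 73.4 and 79.5 CPM in SCR libraries A, B and C and at 561, 465 and 548 CPM in gN1E libraries A, B and C. The labels did not overlap in any line, and the libraries labelled for the knock-down held more NEAT1. Inside the deposited tables the gapmeR names are exchanged in every line, and by those names the libraries with more NEAT1 are SCR. Which naming is right was not tested, so a level lower under gN1E cannot be read as a fall under the NEAT1 gapmeR. Every direction below is therefore given as libraries labelled gN1E against libraries labelled SCR, where gN1E is the label with more NEAT1.

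The line labels carry a limit as well, since inside the deposited tables the names H929 and LP1 are exchanged, so which of these lines each set of libraries came from is uncertain for LP1 as for H929. IGHV3-23, an immunoglobulin heavy chain V segment that does not by itself identify a clone, ranged from 1543 to 2212 CPM in the 6 AMO1 libraries and from 1080.0 to 2106 CPM in the 6 libraries labelled H929 (scaled by total counts). It had 0 counts in all 6 LP1 libraries. Over 12642 genes, mean log2 CPM correlated across genes at 0.934 between AMO1 and H929, at 0.698 between AMO1 and LP1 and at 0.787 between H929 and LP1, where genes are not independent replicates. The libraries labelled H929 thus resembled those of AMO1 more than those of LP1. Still, 44.4% of 26436 genes differed in level between AMO1 and H929 (adjusted p under 0.05 by edgeR with Benjamini-Hochberg adjustment). Results that rest on the libraries labelled H929 are given with and without them where the comparison allows it.

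The marker lists placed all 18 libraries among plasma cells. The 10 plasma cell markers were detected in every group and summed to 12058 to 22528 CPM per library, led by SDC1 (syndecan 1) in AMO1 and H929 and by JCHAIN in LP1. Of 6 B cell markers, PAX5 and CD22 had 0 reads in AMO1, MS4A1 had 0 reads in LP1 and CD22 had 0 reads in H929, and the sum was at most 8.12 CPM in any library. The 6 T cell markers summed to 10.5 to 32.9 CPM, led by CD3E and with CD8A at 0 in LP1 and CD3D at 0 in H929, and the 7 myeloid markers to at most 10.5 CPM, led by CSF1R in LP1 and with FCGR3A at 0 in every line. The 6 stromal markers reached at most 2.93 CPM, led by COL1A1 and with COL3A1, DCN and LUM at 0 in every group, and the 6 epithelial markers 7.30 to 43.8 CPM, led by KRT18 in LP1. Mitochondrial genes took 1.44% to 3.86% of the counts, most in H929 gN1E A.

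Immediate early genes are transcribed within minutes of a stimulus without new protein synthesis, because the factors that switch them on are already present and wait for a phosphate from kinases such as ERK. FOS proteins pair with JUN proteins to form AP-1, a dimer that binds DNA and drives later genes, while EGR1 is a zinc finger factor, IER2 a small nuclear protein and DUSP1 a phosphatase that removes the phosphates from MAP kinases. In myeloma, AP-1 genes are known for their response to drugs, to adhesion and to growth signals from the marrow.

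RefSeq promoters (GRCh38.p14) were held for 9 of the 10 members, FOSL1 being the exception. The 250 bases before the start site are shown for FOS, the gene behind the choice of members, for FOSB and JUN, whose levels moved together between libraries, and for EGR1, which did not follow FOS. They lie on the plus strand at chr14:75278578-75278827 (FOS), chr19:45467746-45467995 (FOSB) and chr5:138465229-138465478 (EGR1) and on the minus strand at chr1:58784048-58784297 (JUN). Capitals mark TGACG, the core of the cAMP response element, TATAAA, the CArG box bound by serum response factor, and GCGNGGGCG, the site bound by EGR1, each searched on both strands (on the other strand TGACG reads CGTCA).
FOS: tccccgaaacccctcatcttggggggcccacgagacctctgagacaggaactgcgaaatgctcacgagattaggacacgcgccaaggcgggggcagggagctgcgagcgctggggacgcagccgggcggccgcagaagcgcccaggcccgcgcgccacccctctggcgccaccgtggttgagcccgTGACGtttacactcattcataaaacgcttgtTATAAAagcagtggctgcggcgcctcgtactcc
FOSB: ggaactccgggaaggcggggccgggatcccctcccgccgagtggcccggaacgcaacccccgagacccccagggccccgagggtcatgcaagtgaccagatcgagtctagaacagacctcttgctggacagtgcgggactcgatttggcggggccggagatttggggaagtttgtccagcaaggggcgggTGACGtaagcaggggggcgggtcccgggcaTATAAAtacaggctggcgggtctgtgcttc
JUN: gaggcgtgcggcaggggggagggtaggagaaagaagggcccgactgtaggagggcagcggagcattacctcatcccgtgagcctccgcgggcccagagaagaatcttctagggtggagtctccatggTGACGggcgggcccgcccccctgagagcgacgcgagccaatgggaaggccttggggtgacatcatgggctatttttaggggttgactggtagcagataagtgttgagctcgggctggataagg
EGR1: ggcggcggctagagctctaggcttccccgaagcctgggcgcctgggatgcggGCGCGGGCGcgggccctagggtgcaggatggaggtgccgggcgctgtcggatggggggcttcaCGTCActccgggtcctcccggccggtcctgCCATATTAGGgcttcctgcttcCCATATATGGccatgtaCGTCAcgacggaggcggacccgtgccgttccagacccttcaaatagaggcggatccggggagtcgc

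TGACG stood in all 9 promoters held and in 21.2% of the 35116 promoters in the table over the same 250 bases. TATAAA stood in those of FOS, FOSB, JUNB and DUSP1 (10.7% of all promoters), beginning 33 bases before the start in FOS and 30 in FOSB. EGR1 alone among the 9 held a CArG box in this window, with matches that began 105 and 83 bases before the start (1.16% of all promoters), and a GCGNGGGCG match 198 bases before it (8.41% of all promoters). TGANTCA, one form of the AP-1 site, was in none of the 9 (6.57% of all promoters). Other forms of that site were not searched, so none of the 9 can be said to lack one. No capital of one motif overlapped another in the sequences shown. Bases further before the start were not searched, so a CArG box of FOS or of another member that lies there would be missed. A match describes the letters and a missing one says nothing of the factor.

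By level, JUNB, JUND and IER2 led the members in each line, far above FOS and JUN. Levels per length (fragments-per-kilobase-per-million, FPKM) were highest in AMO1 for IER2 at 35.9 ± 3.67 (SD, n = 6), followed by JUND and JUNB, and these neighbours overlapped in range. FOSL2 came next at 8.36 ± 0.677 FPKM, apart from both neighbours. DUSP1 and EGR1 overlapped at 3.64 and 3.36 FPKM, as did JUN and FOS at 1.596 and 1.29 FPKM. FOSB at 0.349 FPKM and FOSL1 at 0.0332 FPKM closed the order and did not overlap. In LP1, IER2 led at 55.7 ± 5.34 FPKM (SD, n = 6) and did not overlap JUNB, and JUNB overlapped JUND. FOSL1 stood there at 5.33 ± 0.244 FPKM, above EGR1 at 4.09, FOSB at 2.17, FOS at 0.632 and JUN at 0.587 FPKM, and of these only FOS and JUN overlapped. In the libraries labelled H929, JUND, JUNB and IER2 led at 37.9, 31.7 and 27.9 FPKM with overlap between neighbours, and FOSL2, JUN, DUSP1 and EGR1 overlapped in turn between 4.51 and 3.79 FPKM. FOS followed at 1.48 FPKM. The plot of CPM in each library shows the members in the 3 lines.

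**Figure D1:**
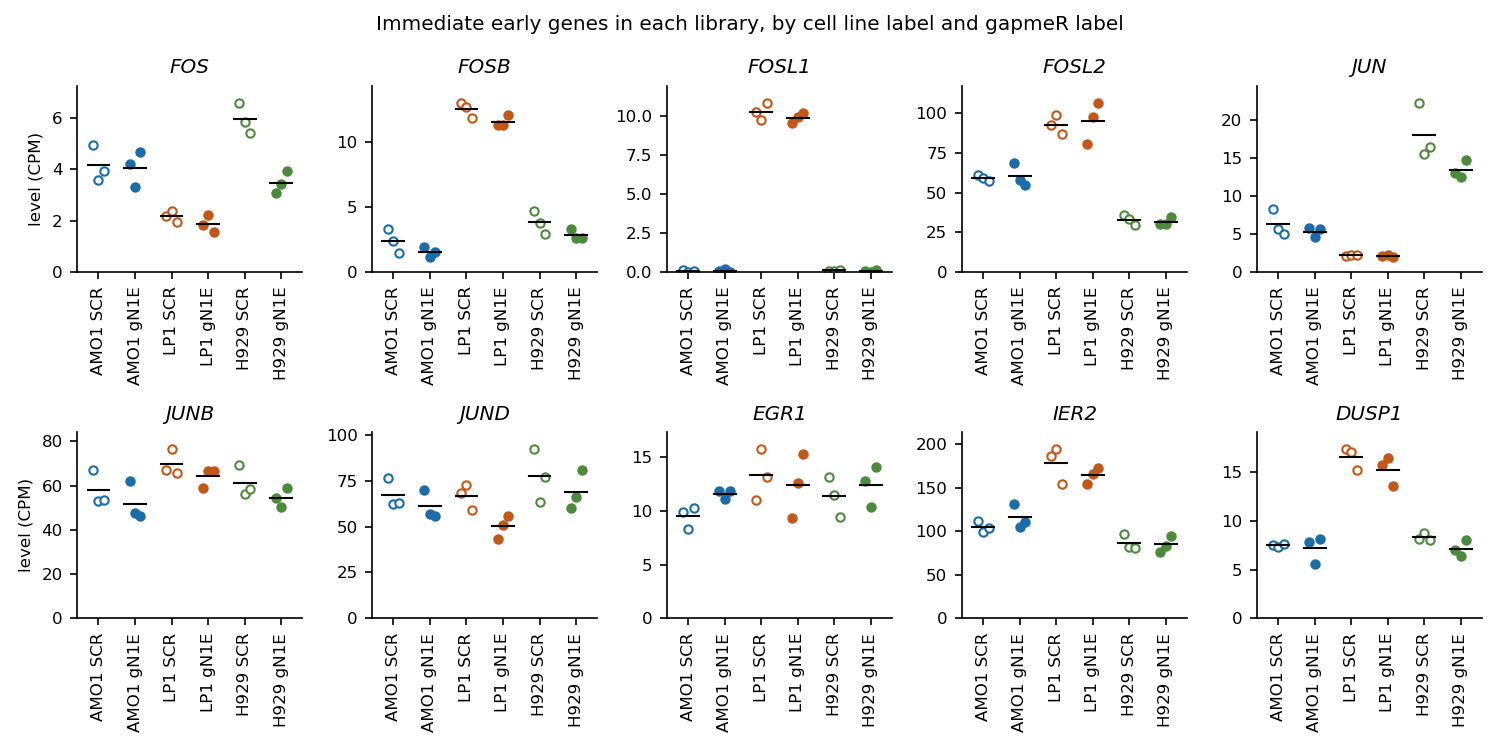
Level of each of the 10 members in CPM, 1 panel per gene with its own axis from 0, in the 3 libraries of each group (points, open for SCR and filled for gN1E, the bar being the mean). FOSL1 is near 0 outside LP1, JUN is highest in the libraries labelled H929, and FOS in H929 separates by gapmeR label.

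FOSL1, FOSB, JUN and FOS differed in level between lines. FOSL1, a FOS relative known for its late and lasting induction, had 408 to 644 reads in each LP1 library but 0 to 6 reads in each AMO1 and H929 library. Its gene lies on chromosome 11 from 65892049 to 65900573, 446509 bases beyond the end of NEAT1. FOSB was at 11.3 to 13.01 CPM in the LP1 libraries, 2.57 to 4.70 CPM in H929 and 1.16 to 3.27 CPM in AMO1, so that LP1 stood apart from both. JUN, the partner in the classical AP-1 dimer, was at 12.6 to 22.3 CPM in H929, 4.58 to 8.24 CPM in AMO1 and 2.00 to 2.25 CPM in LP1, with no overlap between any pair of lines. FOS was lowest in LP1, at 1.55 to 2.39 CPM against 3.32 to 4.96 CPM in AMO1 and 3.06 to 6.60 CPM in H929, where AMO1 and H929 overlapped.

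Between AMO1 and LP1, as the mean over both gapmeR labels in a fit of all 18 libraries, 8 of the 10 members had an adjusted p under 0.05 (the quasi-likelihood test of edgeR, Benjamini-Hochberg adjusted) where 75.9% of 26436 genes did. FOS and JUN were higher in AMO1, by 1.04 (standard error 0.11) and 1.45 (standard error 0.12) on the log2 scale. FOSB, FOSL1, FOSL2, JUNB, IER2 and DUSP1 were lower, by log2 differences from -7.44 (FOSL1) to -0.28 (JUNB). FOSL1 passed the filter on low counts only through LP1, so it had to differ. In bulk samples fewer cells of a type and less RNA per cell cannot be told apart. EGR1, at -0.28 (95% interval -0.55 to -0.0095), had an adjusted p of 0.0567 by the quasi-likelihood test of edgeR, Benjamini-Hochberg adjusted, and of 0.0384 by the same edgeR test without the libraries labelled H929, where 9 members passed. DESeq2 called 9 and limma-voom 8 with all libraries. With library size alone as the scale, the median of all genes moved by 0.18, and JUNB then lost the call at -0.097 while JUND gained it at 0.34.

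Between H929 and LP1, 9 of the 10 members passed the same edgeR test, against 74.6% of all genes, with FOS (1.17), JUN (2.86) and JUND (0.33) higher in the libraries labelled H929. FOSL1 is again in the count only through its LP1 reads and had to differ. EGR1 was the exception, at -0.12 (95% interval -0.39 to 0.15), and its sign turned to 0.071 with library size alone, which moved the median of all genes by 0.19 and ended the call of JUNB (-0.22 to -0.031). Between AMO1 and H929, 4 members passed, against 44.4% of all genes. FOSL2 and IER2 were higher in AMO1 by 0.91 and 0.39, and JUN and FOSB lower, with log2 differences of -1.41 (standard error 0.10) and -0.75 (standard error 0.16). FOS differed by -0.13 (95% interval -0.34 to 0.088) between these lines and did not pass. The member shares lay close to those of all genes, so they say nothing particular of the members.

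Transcripts of the FOS family were mostly FOSL2. As a share of the summed FPKM of FOS, FOSB, FOSL1 and FOSL2, FOSL2 took 83.3% ± 2.35 in AMO1, 61.6% ± 2.36 in LP1 and 68.5% ± 5.16 in H929 (SD, n = 6 each). FOSL1 took 25.2% ± 1.81 in LP1 and at most 1.11% in any library of the other lines. FOS took 12.9% ± 1.86 in AMO1, 2.98% ± 0.453 in LP1 and 22.02% ± 4.497 in H929. Within the JUN family JUNB and JUND held nearly everything, and JUN took 0.775% to 1.05% in LP1, 2.15% to 2.90% in AMO1 and 5.23% to 6.70% in H929, with no overlap between lines. The summed FPKM of the FOS family was 10.0 ± 0.784 in AMO1, 21.3 ± 1.36 in LP1 and 6.62 ± 0.852 in H929, while that of the JUN family overlapped in all 3 lines (55.2 to 91.9 FPKM).

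**Figure D2:**
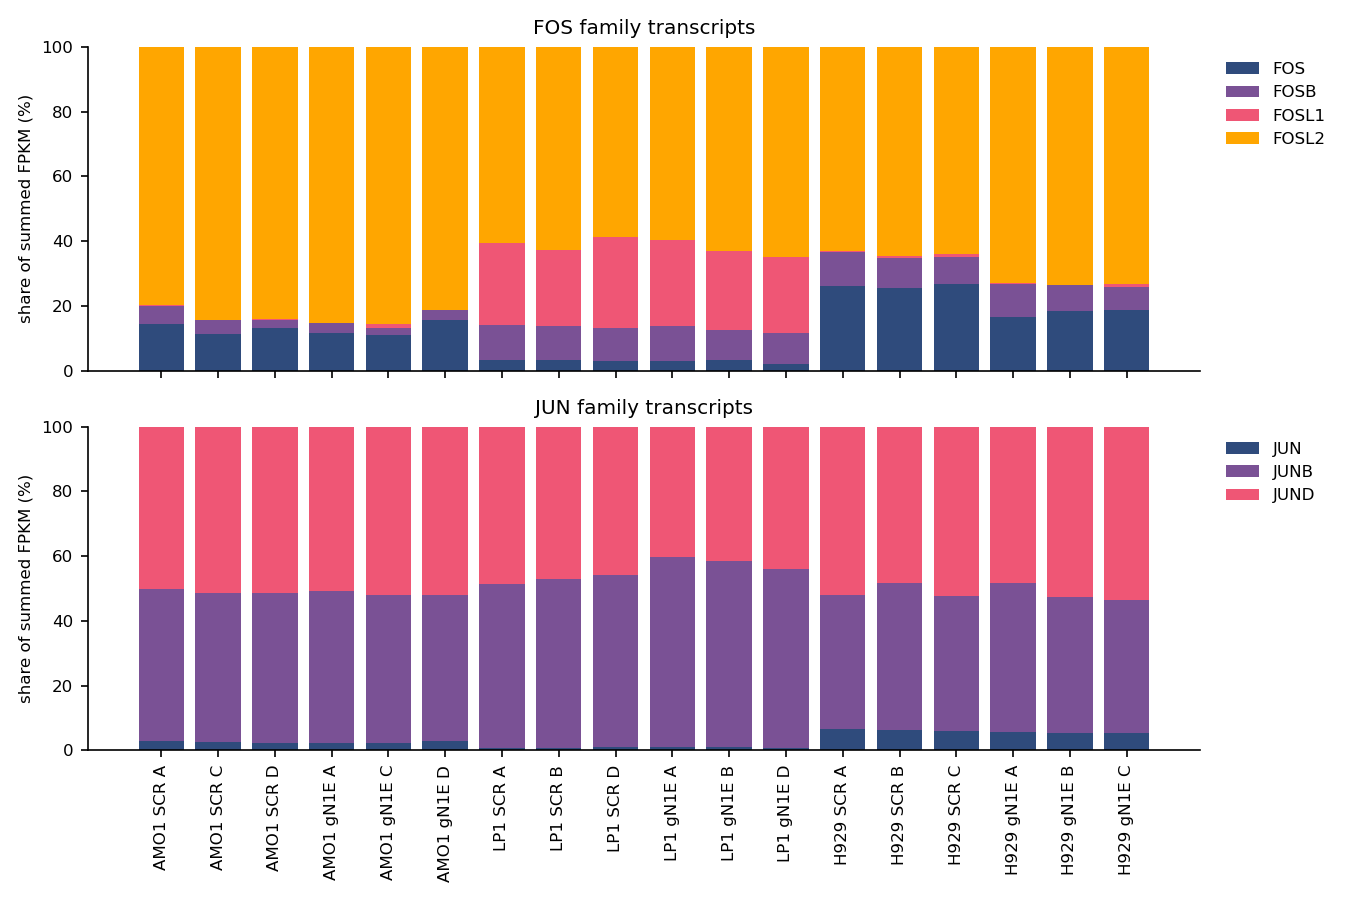
Share of each gene in the summed FPKM of the FOS family (top) and of the JUN family (bottom), in percent, with 1 bar per library. FOSL1 takes 23.4% to 27.9% of the LP1 bars and at most 1.11% of any bar of the other lines, and JUN is the thin band at the foot of the lower bars.

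In the libraries labelled H929, the contrast behind the choice, FOS and JUN lay lower under gN1E and are given as a description without a test. FOS (ENSG00000170345.10, chromosome 14 from 75278826 to 75282230 in hg38) was at 6.60, 5.85 and 5.44 CPM in SCR libraries A, B and C and at 3.06, 3.42 and 3.92 CPM in gN1E libraries A, B and C. All gN1E libraries were below all SCR libraries in CPM, although the raw reads, 173 to 241 against 204 to 382, overlapped. JUN (ENSG00000177606.8, chromosome 1 from 58776845 to 58784048) was at 22.3, 15.6 and 16.5 CPM in SCR libraries A, B and C and at 13.1, 12.6 and 14.8 CPM in gN1E libraries A, B and C. The labels did not overlap, although SCR A stood well above the rest and the gap between gN1E C and SCR B was small. The log2 differences were -0.80 for FOS and -0.45 for JUN, and ran from -0.90 to -0.71 and from -0.55 to -0.26 with 1 library left out. Both were lower without any overlap, where 9.55% of 23499 genes were.

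Of the 9 members tested in these libraries, 8 had log2 differences below 0, FOS and JUN among them, and EGR1 was above 0. FOSB (-0.46), DUSP1 (-0.23), JUNB (-0.19), JUND (-0.18), FOSL2 (-0.069) and IER2 (-0.040) had log2 differences below 0 with overlapping labels, and IER2 and FOSL2 changed sign without SCR A. EGR1 was at 13.1, 11.5 and 9.43 CPM in SCR libraries A, B and C and at 12.8, 10.4 and 14.1 CPM in gN1E libraries A, B and C, which overlapped, with a log2 difference of 0.11. FOSL1 did not pass the filter. The median log2 difference was -0.19 for the members and -0.0096 for all genes.

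AMO1 answers whether the members followed in a line the choice did not use. FOS was at 4.96, 3.57 and 3.95 CPM in SCR libraries A, C and D and at 4.19, 3.32 and 4.68 CPM in gN1E libraries A, C and D, so the labels overlapped. Its log2 difference was -0.013 (95% interval -0.34 to 0.31), and it changed sign without SCR A or gN1E C. JUN was at 8.24, 5.62 and 4.93 CPM in SCR libraries A, C and D and at 5.75, 4.58 and 5.59 CPM in gN1E libraries A, C and D, where SCR A alone stood high. The log2 difference of JUN was -0.22 (95% interval -0.57 to 0.14), and 0.030 without SCR A. FOSB, at -0.57 (95% interval -1.15 to 0.015), rested on 35 to 192 reads per library, ran from -0.82 to -0.26 with 1 library left out, and had its highest level in SCR A. JUND was at 76.2, 62.3 and 62.7 CPM in SCR libraries A, C and D and at 70.2, 56.7 and 55.9 CPM in gN1E libraries A, C and D, and JUNB at 67.2, 52.9 and 53.7 CPM and at 61.9, 47.5 and 46.3 CPM. Both overlapped between labels but were lower under gN1E within each letter, with log2 differences in the paired fit with the block of -0.12 for JUND and -0.15 for JUNB (adjusted p = 0.179 and 0.112 by edgeR with Benjamini-Hochberg adjustment).

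EGR1 went the other way in AMO1. EGR1 (ENSG00000120738.8, chromosome 5 from 138465479 to 138469303) was at 9.91, 8.33 and 10.2 CPM in SCR libraries A, C and D and at 11.8, 11.1 and 11.9 CPM in gN1E libraries A, C and D. Every gN1E library was above every SCR library, which held for 7.85% of 22933 genes. The log2 difference was 0.31 (standard error 0.10), with an adjusted p of 0.174 by the quasi-likelihood test of edgeR, Benjamini-Hochberg adjusted. With the replicate letter as a block, which paired the AMO1 libraries, EGR1 passed at 0.31 with an adjusted p of 0.0366 by the same edgeR test. In the fit without a block, its log2 difference ran from 0.22 to 0.37 with 1 library left out. IER2 was at 99.5 to 112 CPM under SCR and 105 to 131 CPM under gN1E, a log2 difference of 0.15 with overlap, and it was higher under gN1E within each letter (0.15 with the block, adjusted p = 0.0515 by edgeR with Benjamini-Hochberg adjustment).

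None of the 9 members tested in AMO1 had an adjusted p under 0.05 by the quasi-likelihood test of edgeR, Benjamini-Hochberg adjusted, where 2.06% of genes did (473, with 377 higher and 96 lower). Of the 9, 2 (EGR1 and IER2, both higher) had an unadjusted p under 0.05, as 12.2% of all genes did. DESeq2 and limma-voom called 0, and the paired fit with the block called 1, beside 1394 genes in all. FOSL1 did not pass the filter. The median log2 difference was -0.040 for the members and -0.016 for all genes. In AMO1 the epithelial markers, led by CDH1, summed to 10.9 to 13.2 CPM under SCR and 7.30 to 9.31 CPM under gN1E, the B cell markers, led by FCER2, to 7.27 to 8.12 and 5.44 to 6.97 CPM, and their part in these values was not tested.

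In LP1, JUND stood out from the other members. JUND (ENSG00000130522.6, chromosome 19 from 18279694 to 18281622), an AP-1 partner kept at a steady level in many resting cells, was at 68.2, 72.8 and 59.1 CPM in SCR libraries A, B and D and at 43.1, 51.0 and 55.9 CPM in gN1E libraries A, B and D. All gN1E libraries were below all SCR libraries, which held for 10.2% of 23165 genes. The log2 difference was -0.40 (standard error 0.10), with an adjusted p of 0.139 by the quasi-likelihood test of edgeR, Benjamini-Hochberg adjusted. It passed by DESeq2 (adjusted p = 0.00101) and limma-voom (adjusted p = 0.0330), and over all alternatives the adjusted p ran from 4.22e-09 with no filter on low counts to 0.375. Without gN1E D, the highest of its label, the edgeR value with Benjamini-Hochberg adjustment was 0.0287.

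FOS in LP1 was at 2.18, 2.39 and 1.93 CPM in SCR libraries A, B and D and at 1.84, 2.21 and 1.55 CPM in gN1E libraries A, B and D. The labels overlapped, on only 65 to 139 reads per library, and the log2 difference was -0.20 (95% interval -0.56 to 0.16). JUN was flat at 2.05, 2.25 and 2.16 CPM under SCR and 2.10, 2.21 and 2.00 CPM under gN1E (log2 difference -0.017, 95% interval -0.34 to 0.31), and its sign changed with library size alone. EGR1 was at 10.97, 15.7 and 13.2 CPM under SCR and 9.30, 12.6 and 15.2 CPM under gN1E (log2 difference -0.089, 95% interval -0.68 to 0.50), with the labels interleaved. FOSB (-0.10), FOSL1 (-0.040), JUNB (-0.10), IER2 (-0.098) and DUSP1 (-0.097) were close to 0, and FOSL2 was at 0.054.

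None of the 10 members in LP1 had an adjusted p under 0.05 by the quasi-likelihood test of edgeR, Benjamini-Hochberg adjusted, where 1.43% of genes did (332, with 152 higher and 180 lower). At an unadjusted p under 0.05 there was 1 (JUND), where 13% of all genes were. DESeq2 and limma-voom each called 1, JUND. The members' median was -0.097, against -0.0012 for all genes, and 9 of the 10 log2 differences were below 0. In LP1 the T cell markers summed to 14.9 to 16.5 CPM under SCR and 10.5 to 14.3 CPM under gN1E, the myeloid markers to 7.72 to 10.5 and 4.14 to 6.61 CPM, and the epithelial markers to 42.1 to 43.8 and 36.5 to 39.7 CPM, and their part in these values was not tested.

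**Figure D3:**
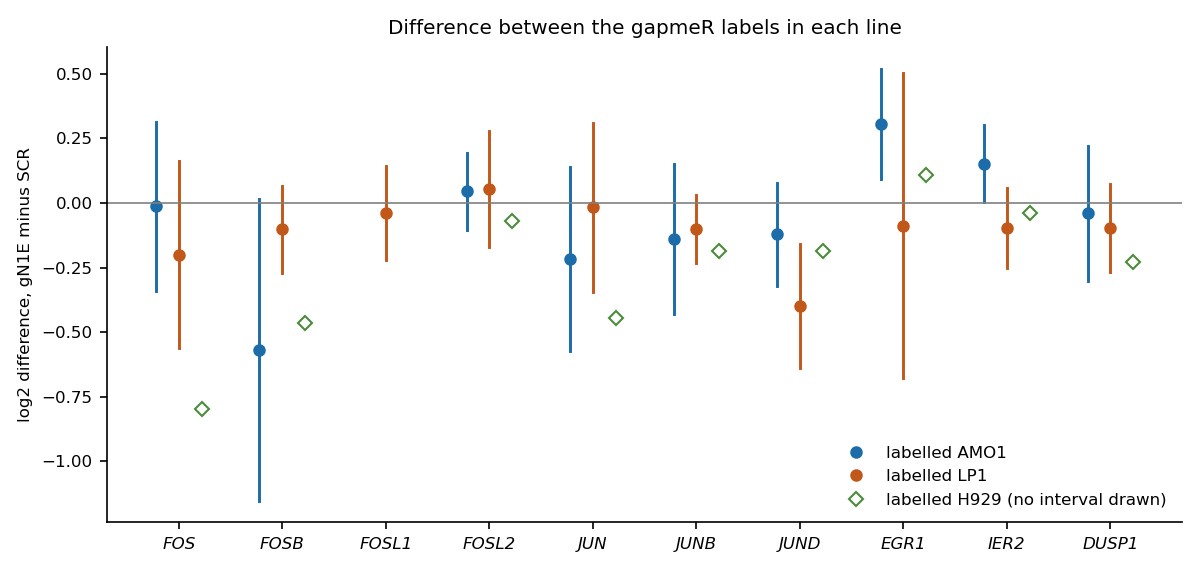
Log2 difference between the libraries labelled gN1E and SCR for each member, from edgeR's fit of each line, with 95% intervals as vertical lines for AMO1 and LP1 (filled circles) and no interval for H929 (open diamonds), where FOS was used in the choice. FOS lies at -0.80 in H929, -0.013 in AMO1 and -0.20 in LP1, and EGR1 is above 0 in AMO1 and H929.

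The response itself was compared between AMO1 and LP1, as the difference of the gN1E minus SCR differences in the fit of all 18 libraries. None of the 10 members had an adjusted p under 0.05 by the quasi-likelihood test of edgeR, Benjamini-Hochberg adjusted, where 0.741% of genes did. None had an unadjusted p under 0.05 (10.7% of all genes) or passed by DESeq2 or limma-voom. FOSL1 entered this fit only through its LP1 reads, so its difference of 0.44 (95% interval -1.53 to 2.40) could not show a change. The difference for EGR1 was 0.42 (95% interval -0.13 to 0.96), for JUND 0.30 (95% interval -0.20 to 0.79) and for FOS 0.21 (95% interval -0.26 to 0.67). Without the libraries labelled H929, they were 0.39, 0.27 and 0.18. These intervals are wide beside the differences within a line, so neither a shared response nor a different response was shown for EGR1, JUND or FOS. They come from a fit without the letter block that paired the AMO1 libraries.

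The lists in AMO1 are read beside the 2.06% of all genes that passed (1.64% higher) and the 12.2% with an unadjusted p under 0.05. Of 33 other immediate early genes tested, EGR2, a zinc finger relative of EGR1, was higher under gN1E and no other passed in either direction, while 7 had an unadjusted p under 0.05. EGR2 was at 1.56 ± 0.184 CPM under SCR and 2.66 ± 0.358 CPM under gN1E (SD, n = 3 each), a log2 difference of 0.78 (standard error 0.18, adjusted p = 0.0234 by the quasi-likelihood test of edgeR, Benjamini-Hochberg adjusted). It lost the call without SCR D, gN1E A or gN1E D, with log2 differences from 0.69 to 0.87 over the 6 fits. Of 13 AP-1 dimer partners, ATF7 was higher by 0.47 (standard error 0.065) and ATF5 lower, at -0.34 (standard error 0.082). ATF7, a CREB-related factor that can pair with JUN, was at 36.2 ± 1.14 CPM under SCR and 49.7 ± 2.13 CPM under gN1E (SD, n = 3 each) and kept its call with each library left out. ATF5 lost the call without SCR D, gN1E C or gN1E D, with log2 differences from -0.46 to -0.27. Of 28 genes of the signal relay to FOS and EGR1, RPS6KA5, the kinase MSK1 that acts on chromatin at such genes, was higher by 0.35 (standard error 0.089) and lost the call without SCR A, SCR D, gN1E C or gN1E D (0.26 to 0.43). In the same edgeR test no gene passed among 20 of ERK feedback and output, 8 AP-1 targets or 13 heat shock genes, and DESeq2 and limma-voom called 0 in each, while 2, 3 and 1 of them had an unadjusted p under 0.05. For the immediate early, partner and relay lists DESeq2 called 1, 2 and 1 and limma-voom 1, 1 and 0. The paired fit with the block called 6, 2, 1, 0, 1 and 2 genes of the 6 lists in the order given, with EGR2, ATF7, ATF5 and RPS6KA5 among them. That fit called more genes in all than the fit without a block, so the 2.06% is not the background of its counts.

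In LP1 all list genes that passed were lower under gN1E, as 0.777% of genes were. Of 38 other immediate early genes, 4 passed, namely KLF6 (-0.24), IER3 (-0.47), PPP1R15A (-0.24) and RHOB (-0.24), with standard errors from 0.050 to 0.11. IER3, an early gene tied to cell survival, was at 6.11 ± 0.202 CPM under SCR and 4.34 ± 0.174 CPM under gN1E (SD, n = 3 each), and KLF6, a zinc finger factor, at 78.2 ± 2.82 and 65.4 ± 1.18 CPM. Of 21 genes of ERK feedback and output, SPRED1, a brake on RAS signalling, and DUSP6, the phosphatase that acts on ERK, were lower, by -0.31 (standard error 0.053) and -0.26 (standard error 0.049). SPRED1 was at 53.2 ± 0.173 CPM under SCR and 42.5 ± 1.65 CPM under gN1E (SD, n = 3 each), and DUSP6 at 144 ± 3.78 and 119 ± 4.47 CPM. Of 8 AP-1 target genes, VIM (vimentin) at -0.27 and TGFB1 at -0.30 passed, and all 8 had log2 differences below 0, with a median of -0.18.

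With 1 library left out, the LP1 log2 differences held their direction and about their size, while the calls of all but SPRED1 were lost in some fits. SPRED1 passed in all 6 fits that left out 1 library (adjusted p from 0.00386 to 0.0447 by the quasi-likelihood test of edgeR, Benjamini-Hochberg adjusted). DUSP6 lost the call without SCR B or gN1E B (log2 differences from -0.30 to -0.24 over the 6 fits), VIM without SCR A, SCR B or gN1E A (-0.31 to -0.23), PPP1R15A without SCR B, gN1E A or gN1E B (-0.29 to -0.18), KLF6 and TGFB1 without SCR A, SCR B, gN1E A or gN1E B (-0.26 to -0.22 and -0.36 to -0.24), and IER3 and RHOB in every fit but that without SCR D (-0.50 to -0.45 and -0.29 to -0.20). At an unadjusted p under 0.05 by edgeR there were 12 other immediate early genes (11 lower), 9 of ERK feedback and output (7 lower) and 3 AP-1 targets (3 lower). With all libraries DESeq2 called 6, 5 and 3 genes of the immediate early, ERK feedback and AP-1 target lists, and limma-voom 2, 2 and 3. In LP1 DESeq2 called more genes in all than edgeR, so the edgeR share of all genes is not the background of its counts. Among 15 AP-1 dimer partners, 28 genes of the signal relay and 14 heat shock genes none passed in LP1, with 4, 5 and 2 at an unadjusted p under 0.05 (13% of all genes), 1, 1 and 0 by DESeq2 and 0 in each by limma-voom.

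In the libraries labelled H929 the lists are given as genes passing the same edgeR test, as 5.47% of 23499 genes did and 1.77% did with a lower level, with nothing read from them. Of 35 other immediate early genes, TNFAIP3 was higher (0.20) and IER5 (-0.23) and ID2 (-0.26) lower, and of 14 dimer partners ATF7 was higher (0.53) and ATF5 (-0.18) and MAF (-0.24) lower. Among the 28 relay genes, RPS6KA5 was higher (0.39). Of 21 genes of ERK feedback and output, ETV5 and DUSP7 were higher (0.21 each) and DUSP6 (-0.21) and PHLDA1 (-0.62) lower, of 8 AP-1 targets VIM (-0.28) and CD44 (-0.23) were lower, and of 14 heat shock genes HSPA1B was lower (-0.31). HSPA1B shares reads with its near-identical copy HSPA1A, so its value is uncertain. With 1 library left out, ATF5 and DUSP6 passed in 0 of 6 fits (-0.20 to -0.15 and -0.22 to -0.19), IER5 in 2 (-0.27 to -0.19), and ID2 (-0.33 to -0.18), MAF (-0.30 to -0.15) and DUSP7 (0.19 to 0.24) in 3. ETV5, HSPA1B and PHLDA1 passed in 4 of these fits and CD44 in 5, while TNFAIP3, ATF7, RPS6KA5 and VIM passed in all 6. The plasma cell markers summed to 18954 to 20097 CPM under SCR and 21312 to 22528 CPM under gN1E in H929, led by SDC1 (log2 difference 0.22) while CD38 was lower (-0.21), the epithelial markers, led by KRT8 (-0.29), to 14.98 to 18.3 and 13.4 to 14.4 CPM, and their part in these values was not tested.

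**Figure D4:**
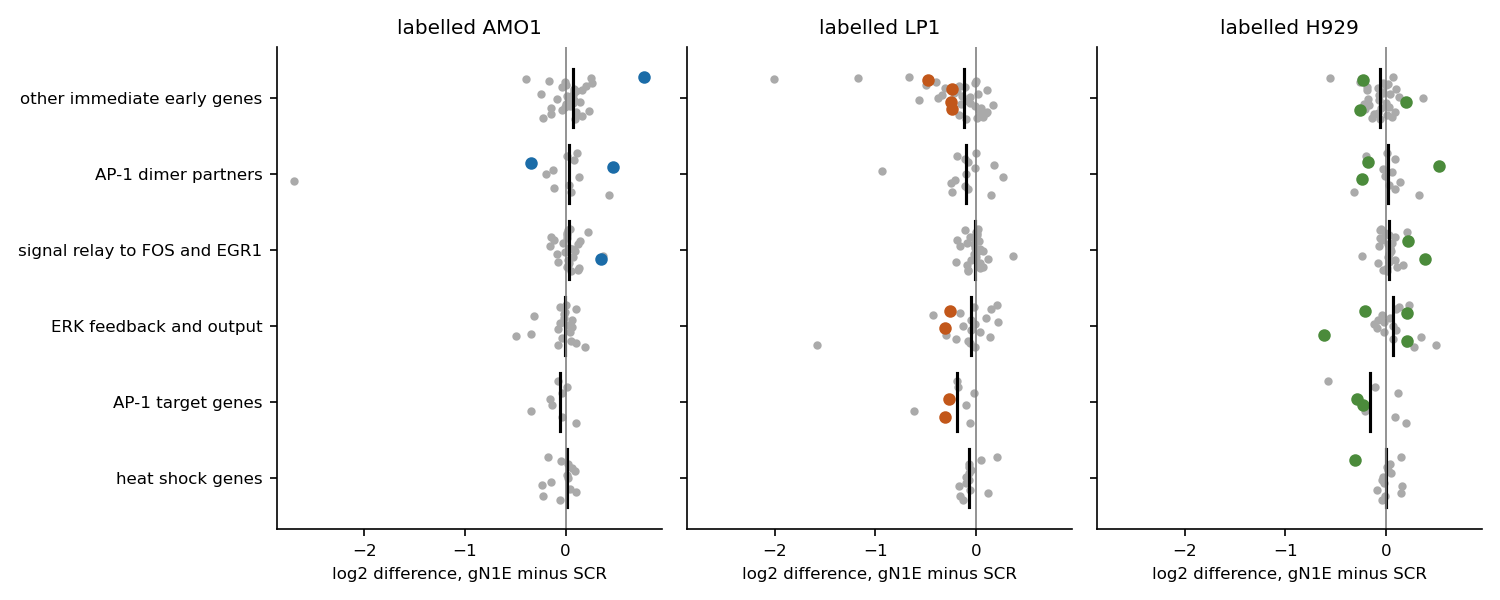
Log2 difference between the libraries labelled gN1E and SCR for the tested genes of 6 lists (points) in each line, on one scale, with genes past an adjusted p of 0.05 in colour (the quasi-likelihood test of edgeR, Benjamini-Hochberg adjusted) and the list's median as a bar. The coloured points in LP1 all lie below 0, and the medians lie between -0.18 and 0.073.

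The most abundant genes of the lists, by FPKM, were far above FOS. MCL1, a survival gene of the BCL2 family, was at 252 ± 5.76 FPKM in AMO1, 179.8 ± 3.48 in LP1 and 219 ± 13.4 in H929 (SD, n = 6 each), and BTG2, an inhibitor of proliferation, at 102 ± 4.77, 99.9 ± 10.2 and 143 ± 5.85 FPKM. ATF4, the factor of the integrated stress response, was at 237, 233 and 220.2 FPKM in AMO1, LP1 and H929 with overlapping ranges, while ATF5 was at 410.4 FPKM in LP1 and at 14.7 and 21.6 FPKM in AMO1 and H929. NRAS was at 129 FPKM in LP1 and at 15.7 and 19.0 FPKM in AMO1 and H929, and ARAF at 31.3, 21.98 and 25.4 FPKM. DUSP5, a nuclear phosphatase of ERK, was at 263 FPKM in LP1 and at 109 and 94.3 FPKM in AMO1 and H929, and ETV4 at 18.8, 25.9 and 21.1 FPKM. VIM and TGFB1 led the AP-1 targets at 306 and 81.9 FPKM in LP1, and HSPA8 and HSP90AB1 the heat shock genes at 704 and 575 FPKM in LP1. For ATF5, NRAS, DUSP5, HSPA8 and HSP90AB1, every LP1 library was above every library of AMO1 and H929.

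Within lines, several members varied together, with JUN in 3 of the 5 highest correlations. The values here are Pearson correlations of log2 CPM over 18 libraries after each line's mean was subtracted, given as a description, since libraries of one line and label share their culture conditions and the H929 contrast behind the choice enters them. The highest were JUNB with JUND (0.829), FOSB with JUN (0.823), JUN with JUNB (0.788), FOS with JUN (0.769) and FOS with DUSP1 (0.760). Without the libraries labelled H929 (12 libraries), they were 0.821, 0.888, 0.708, 0.649 and 0.808. EGR1 correlated with FOS at 0.0098 and with JUN at 0.034, but with FOSL2 at 0.608 and IER2 at 0.538.

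**Figure D5:**
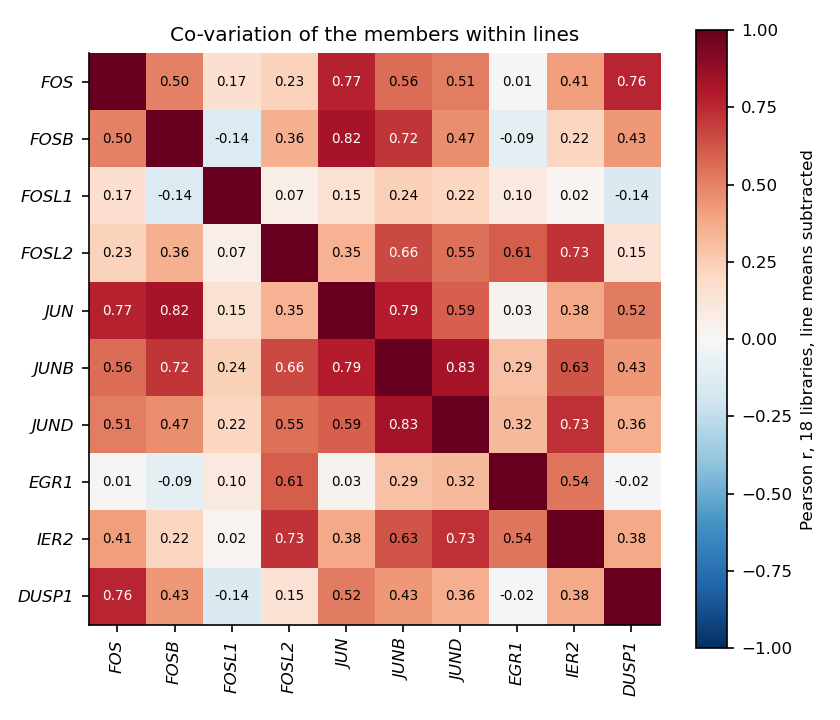
Pearson r of log2 CPM between each pair of members over 18 libraries after subtracting line means, from blue (-1) to red (1). JUN with JUNB and FOSB, and JUNB with JUND, are among the reddest cells, and the EGR1 cells with FOS, FOSB, JUN and DUSP1 are near white.

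The genes most like 3 members, out of 11904 with a symbol and a mean log2 CPM of at least 1, were ranked by the same correlation. Most like FOS were RCBTB2 (0.841), S100A6 (0.833), SGPP1 (0.832), SCPEP1 (0.826) and TNFRSF17 (0.819), the last encoding the plasma cell antigen BCMA. Without the libraries labelled H929 these 5 stood between 0.640 and 0.715. Most like JUN were PIK3IP1 (0.845), RCBTB2 (0.836), IDH2 (0.833), PLAAT4 (0.831) and FAM167A (0.830), at 0.767 to 0.866 without H929. Most like EGR1 were HIVEP3 (0.811), TNIP1 (0.790), SLC30A3 (0.771), PLEKHA7 (0.770) and DNMT3A (0.770), at 0.761 to 0.877 without H929. RCBTB2 was among the 5 for both FOS and JUN, and EGR1 shared none with either.

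FOS and JUN were apart by gapmeR label in the libraries labelled H929, by the contrast that chose FOS, EGR1 in AMO1 in the other direction, and JUND in LP1, and no difference in response between AMO1 and LP1 was shown for any of them. The limits are those of gapmeR labels that NEAT1 contradicts and that are exchanged inside the tables, as are the line names H929 and LP1. Further limits are H929 libraries that resemble AMO1 and 3 libraries per group. Fits without the libraries labelled H929 do not settle whether those labelled LP1 are LP1 cells. FOS, FOSB and JUN had few reads in some lines. The libraries were taken at a single time, so the fast rise and fall of immediate early transcripts was not followed, and RNA says nothing of phosphorylated FOS or JUN protein.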

How the data were processed

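The deposited tables hold read pairs counted by strand at exons, and the authors made them with STAR 2.7.10a (hg38) and featureCounts 1.6.4 on GENCODE release 43. They hold 62703 genes, of which 62639 have a symbol. Nothing was realigned. RNA was total RNA prepared as stranded total RNA libraries. Inside the tables the gapmeR names are exchanged in every line, and the names H929 and LP1 likewise, so groups were taken from the sample labels.

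The tests took genes that reached 10 reads in any library, by edgeR 4.0.16 (quasi-likelihood, TMM, robust), with Benjamini-Hochberg adjustment over all tested genes. Each line was fitted alone for the gapmeR labels and all 18 libraries together for levels and responses. Libraries sharing a letter were not stated to be pairs. In AMO1 the SCR and gN1E libraries of letters A, C and D correlated at 0.221, 0.190 and 0.148 after group means were subtracted (12642 genes), so they were taken as paired, and the block fit is given beside the fit without a block. Alternatives used limma-voom (limma 3.58.1), DESeq2 1.42.0, other size factors, other filters, a replicate block, a cut-off of 1.5-fold at an adjusted p of 0.1, and fits that omitted 1 library. The fit without the libraries labelled H929 was added after the data were seen. R 4.3.3, Python 3.11.15, numpy 2.4.6, pandas 2.3.3 and matplotlib 3.10.9 were used.

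Members and lists were chosen with earlier results of these data known. Genes named are the 10 members, NEAT1, list genes with an adjusted p under 0.05 in a line by edgeR with Benjamini-Hochberg adjustment (at most 4 per list and line), the 2 list genes highest in FPKM, and the 5 genes most like FOS, JUN and EGR1 (log2 CPM, prior count 2). POU2AF1 was named after its value was seen. A result for 1 list gene that met this rule is not reported here. The 6 pathway lists hold 133 genes. Promoters are the 250 bases before RefSeq starts.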

Additional observations from a re-analysis of the deposited data

Results flagged for a closer look

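KLF6 passed the test of a response difference between AMO1 and LP1 in the fit of all 18 libraries. The difference between the responses was 0.34 (standard error 0.075, adjusted p = 0.0156 by the quasi-likelihood test of edgeR, Benjamini-Hochberg adjusted), from log2 differences of 0.086 in AMO1 and -0.24 in LP1. BTG2 did so by 0.32 (standard error 0.076, adjusted p = 0.0334 by the same edgeR test with Benjamini-Hochberg adjustment), from 0.088 and -0.21. POU2AF1, a plasma cell marker, went the other way, at -0.25 (standard error 0.062, adjusted p = 0.0477 by the same edgeR test with Benjamini-Hochberg adjustment), from -0.15 and 0.12. Without the libraries labelled H929 none of these passed the same edgeR test with Benjamini-Hochberg adjustment (0.31, 0.29 and -0.28, adjusted p = 0.0845, 0.166 and 0.0854 for KLF6, BTG2 and POU2AF1), with differences of about the same size.

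TGFB1 was lower under gN1E in LP1, and in the libraries labelled H929 its CPM lay higher under gN1E, with no overlap of labels in either. In H929 it did not pass the same edgeR test, and 12.3% of genes lay higher there without overlap. It was at 297 ± 25.2 CPM under SCR and 238 ± 18.4 CPM under gN1E in LP1 (SD, n = 3 each), a log2 difference of -0.30, and at 216 ± 2.38 and 232 ± 8.64 CPM in H929 (SD, n = 3 each), a log2 difference of 0.095. The difference between these lines was not tested. Groups of 3 libraries were not tested for outliers.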

How the results depend on the processing

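Of 680 log2 differences under other settings 3 changed sign, and of 906 with 1 library left out 15 did. Counts that answer a comparison moved in 20 of 110 other settings and in 16 of 180 fits with 1 library left out, and list counts in 40 of 144 and 44 of 108. The cause was not tested.

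In AMO1 the members called, 0, became 1 with the replicate block. The genes called, 473, became 808 with no filter on low counts, 1394 with the block and 176 with the 1.5-fold cut-off, and 254 to 606 with 1 library left out. The sign of FOS changed with limma-voom (0.0017). With 1 library left out FOS ran from -0.12 to 0.13, JUN from -0.35 to 0.030, FOSL2 from -0.047 to 0.11 and DUSP1 from -0.13 to 0.095.

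In LP1 the members called, 0, became 1 with DESeq2, with limma-voom and with no filter, and 0 to 1 with 1 library left out. The genes called, 332, became 512 with DESeq2, 700 with no filter and 102 with the 1.5-fold cut-off, and 87 to 780 with 1 library left out. JUN was 0.011 with library size only. With 1 library left out JUN ran from -0.061 to 0.016, FOSL2 from -0.042 to 0.16, EGR1 from -0.27 to 0.091 and FOSL1 from -0.078 to 0.0090.

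In H929 the member called is FOS, the gene of the choice, so nothing is read from these counts. The members called, 1, became 2 with DESeq2, with limma-voom, with library size only and with the block, 4 with no filter, and 1 to 3 with 1 library left out. The genes called, 1286, became 369 with the 1.5-fold cut-off and 701 to 1272 with 1 library left out. FOSL2 ran from -0.14 to 0.00048 and IER2 from -0.13 to 0.054.

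For the response difference between AMO1 and LP1 the genes called, 196, became 521 with DESeq2, 96 with the 1.5-fold cut-off, 103 without the libraries labelled H929, and 122 to 218 with 1 library left out. For the level of AMO1 against H929 the genes called, 11731, became 5065 with the 1.5-fold cut-off, and DUSP1 ran from -0.092 to 0.018. For H929 against LP1, EGR1 was 0.071 with library size only. The block was not fitted for levels, since letters lie within lines. Libraries sharing a letter correlated at 0.168, -0.0057 and -0.054 in LP1 (A, B, D) and at 0.010, -0.060 and -0.153 in H929 (A, B, C).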

Other observations

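ATF7 was higher under gN1E than under SCR in all 3 lines with no overlap of labels. Taken line by line, this held for 7.85% of genes in AMO1, 7.5% in LP1 and 12.3% in H929. The share of genes for which it held in all 3 lines at once was not counted. ATF7 was at 29.4 ± 0.411 and 33.0 ± 2.53 CPM in LP1 (SD, n = 3 each), where it was not called. In the libraries labelled H929 it was at 30.1 ± 1.79 and 44.0 ± 0.925 CPM.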
